A study of Mus musculus with 51 samples.

Results

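The genes described here are 33 genes of red blood cell formation, which were chosen by name: 3 embryonic globins, 6 transcriptional regulators, 7 genes of haem synthesis and iron, 11 genes of the red cell membrane and its skeleton, and 6 genes for the erythropoietin receptor, a globin chaperone and red cell enzymes or regulators. 31 of the 33 had a probe set that carries exactly 1 gene symbol, out of 18194 genes measured that way, and Epb41 and Ahsp did not. RNA was hybridized to 51 whole-genome mouse arrays from FVB embryos, with no mutant allele and no treatment named in the labels. The groups were forelimb buds of 5 daily stages between E9.5 and E13.5 (3, 5, 4, 5 and 5 arrays from the youngest to the oldest), hindlimb buds of the 4 stages that begin with E10.5 (4, 5, 5 and 5 arrays), and intact whole embryos of all 5 stages (2 arrays each). Each array held the RNA of 1 embryo, but all limb replicates of a stage came from 1 litter. Litter and stage therefore cannot be told apart, and the errors of limb groups measure the spread between littermates. A limb bud holds the blood of its vessels, so fewer red cells in a bud and less RNA per red cell cannot be told apart.

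Red cells of the mouse embryo come in 2 waves. Primitive erythroblasts arise in the yolk sac, enter the circulation while still nucleated and mature there together, making the embryonic globins. Definitive erythroblasts mature later in the fetal liver and make the adult globins, and transcripts of the regulators and of the synthesis machinery are lost as a red cell matures. A limb bud holds red cells that circulate and is not known as a site where they form, whereas a whole embryo holds its liver too.

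Values are deposited intensities on a log2 scale, on which a difference of 1 is a 2-fold difference. Calls required at least a 2-fold change together with an adjusted p under 0.001 in a limma fit of all 14 groups. The 13 arrays of whole embryo and E9.5 forelimb stood apart from the 38 later limb arrays in probe sets that should not depend on tissue. Their mean for the added Dap control transcript lay between 8.56 and 11.73, against 2.96 to 3.38 on the later limb arrays, and the Gapdh probe sets of the 3′ end exceeded those of the 5′ end by 1.48 to 2.85, against -0.10 to 0.16. Limb and whole embryo at E10.5 and later, and E10.5 and E9.5 forelimb, thus lie in different array sets, a part in those results that was not tested. Differences between E10.5 and E13.5 within forelimb, within hindlimb or within whole embryo do not cross the sets. Within whole embryo the Gapdh 3′ over 5′ difference still moved, from 2.628 and 2.556 at E10.5 to 2.025 and 1.923 at E13.5. Its part in the whole-embryo changes was not tested. The 2 arrays whose other labels disagree with their titles carried the limb-type genes of their titles: the array titled E12.5 forelimb had Tbx5 at 9.77 and Pitx1 at 5.52, and the one titled E11.5 hindlimb had Tbx5 at 5.75 and Pitx1 at 10.65.

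Averaged over the 31 genes, the erythroid level of limb buds was highest at E10.5 and lowest at E13.5, while that of whole embryos was highest at E13.5. In forelimb the mean over genes was 7.58 ± 0.09 in E9.5 buds (SD, n = 3), 8.21 ± 0.23 in E10.5 buds (n = 5) and 8.07 ± 0.07 in E11.5 buds (n = 4), and then 7.09 ± 0.20 in E12.5 buds and 6.43 ± 0.03 in E13.5 buds (n = 5 each). Hindlimb followed with 8.10 ± 0.06 in E10.5 buds (n = 4) and 7.92 ± 0.06 in E11.5 buds, and then 7.01 ± 0.14 in E12.5 and 6.33 ± 0.08 in E13.5 buds (n = 5 each). The 2 whole embryos of E9.5 had 7.78 and 7.23, those of E10.5 had 7.97 and 8.24, those of E11.5 had 7.97 and 8.10, those of E12.5 had 8.95 and 8.99, and those of E13.5 had 9.79 and 9.83. No E12.5 or E13.5 limb array reached the lowest whole embryo of its stage, whereas limb and whole embryo overlapped at each stage up to E11.5.

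**Figure D1:**
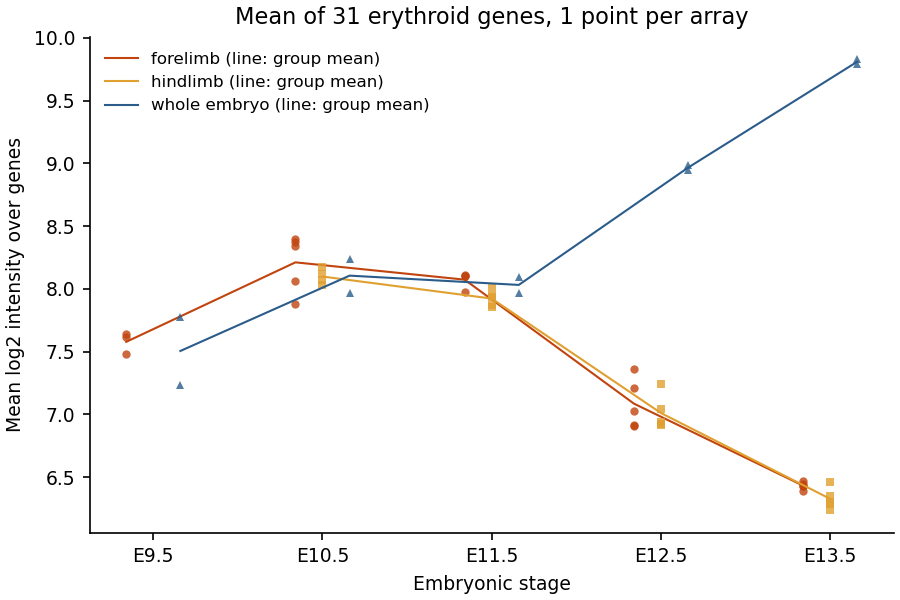
Mean log2 intensity over the 31 measured erythroid genes (vertical axis) by embryonic stage (horizontal axis), with 1 point per array and a line through the group means. Forelimb and hindlimb arrays lie between 6.24 and 6.47 at E13.5, and both whole embryos of that stage lie at 9.79 and 9.83.

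The comparison of each limb with whole embryo of its stage asks which transcripts a limb bud holds more or less of than the embryo at large. At E9.5 none of the 31 genes was called in forelimb in the lower direction, against a background of 1.61% of all genes. At E10.5 there were 2 lower in forelimb (Gata1 and Trim10, background 3.44%) and 3 in hindlimb (also Tal1, background 3.41%), and at E11.5 the same 5 in forelimb (background 3.64%) and hindlimb (background 3.95%): Gata1, Tal1, Hemgn, Rhd and Ermap. At E12.5 the count was 24 in forelimb (background 5.44%) and 25 in hindlimb (background 5.43%), and at E13.5 it was 26 in forelimb (background 8.12%) and 27 in hindlimb (background 8.35%). Hbb-bh1, which only hindlimb added at E13.5, was -0.93 and not called without hindlimb replicate 2. The median log2 fold change over the 31 genes in forelimb was 0.11 for E9.5, then 0.16 for E10.5 and 0.08 for E11.5, and it reached -1.56 for E12.5 and -3.23 for E13.5, while the median over all 18194 genes lay at -0.05 and -0.06 at the last 2 stages. The E10.5 count in forelimb fell to 1 without whole embryo replicate 2 of that stage, and the E11.5 count in forelimb fell to 2 without whole embryo replicate 2 of that stage.

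**Figure D2:**
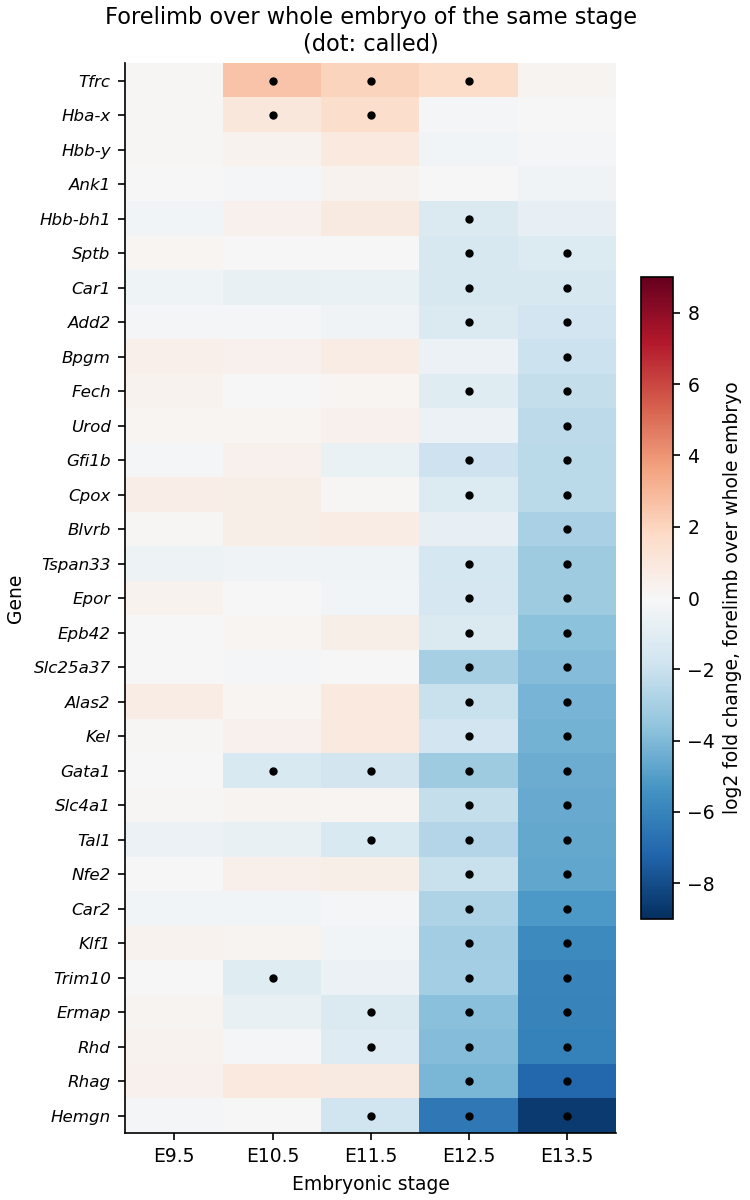
Log2 fold change of forelimb over whole embryo of the same stage (colour, blue where forelimb is lower) for each of the 31 genes (rows, ordered by the E13.5 value) at each stage (columns), with a black dot where a gene was called. From E12.5 on nearly every row is blue and dotted, and the rows without a dot at E13.5 are the 3 embryonic globins, Tfrc and Ank1.

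Called higher in limb than in whole embryo were Tfrc in both limbs at each stage between E10.5 and E12.5, and Hba-x in forelimb at E10.5 and in both limbs at E11.5. With the lower genes, 4 of 31 were called in either direction in E10.5 forelimb (background 13.9%) and 4 in E10.5 hindlimb (background 13.2%). The higher genes were 2 in E11.5 forelimb (background 11.7%) and E11.5 hindlimb (background 11.8%), and 1 in E12.5 forelimb (background 8.52%) and E12.5 hindlimb (background 7.11%). All of these comparisons cross the array sets, and by its brightest probe set Tfrc was not called higher in any of them.

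The embryonic globins parted from one another. Hba-x encodes the embryonic alpha-like chain zeta, and Hbb-bh1 and Hbb-y encode the embryonic beta-like chains, of which Hbb-bh1 is expressed first in primitive cells. Hbb-bh1 had 9.26, 8.80, 9.41, 9.02 and 9.44 in E13.5 forelimbs, against 14.14, 14.20, 13.97, 14.06 and 14.19 in E10.5 forelimbs. Hindlimbs had 9.13, 8.45, 9.04, 9.14 and 8.77 at E13.5 and 14.06, 14.08, 14.10 and 14.02 at E10.5, and whole embryos had 9.97 and 9.93 at E13.5 and 13.59 and 13.90 at E10.5. In each tissue all E13.5 arrays lay below all E10.5 arrays. The log2 fold change was -4.93 ± 0.14 in forelimb (SE, limma adjusted p = 2.31e-29), -5.16 ± 0.15 in hindlimb (adjusted p = 2.79e-29) and -3.79 ± 0.22 in whole embryo (adjusted p = 2.46e-18).

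Limb had Hbb-bh1 called lower at the step to E12.5 and again at the step to E13.5, and whole embryo at the step to E13.5. Its mean in forelimb was 12.02 ± 0.40 at E12.5 (SD, n = 5) and 13.67 ± 0.10 at E11.5 (n = 4), whereas whole embryos had 13.26 and 13.42 at E12.5 and 12.82 and 12.91 at E11.5. At E12.5 all 5 forelimbs and all 5 hindlimbs lay below both whole embryos, and the fold change in forelimb was -1.32 ± 0.19 (limma adjusted p = 6.09e-08). By probe set it was -1.65, -1.75 and -0.57, and the call was lost with the 2 arrays of conflicting labels placed by their other labels, at -0.95. It was also lost with a block of replicate numbers (limma adjusted p = 0.00894), which are not stated to mark a shared embryo. At E13.5 the distance from whole embryo depended on the probe set: it was -1.22 and -1.54 in forelimb by 2 probe sets and 0.47 by the third, so the gene average of -0.76 is an uncertain value.

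Hba-x fell too. E13.5 forelimbs had 12.04, 11.44, 11.97, 11.99 and 12.00, against 13.94, 14.09, 13.73, 13.83 and 14.01 in E10.5 forelimbs, and E13.5 hindlimbs had 11.71, 11.34, 11.49, 11.75 and 11.56, against 13.90, 13.82, 13.81 and 13.92 in E10.5 hindlimbs. Whole embryos had 11.95 and 11.78 at E13.5 and 12.65 and 13.13 at E10.5. Here too no E13.5 array reached an E10.5 array of its tissue. The fold changes were -2.03 ± 0.16 in forelimb (SE, limma adjusted p = 3.08e-15), -2.29 ± 0.17 in hindlimb (adjusted p = 4.57e-16) and -1.03 ± 0.25 in whole embryo (adjusted p = 0.00061). It was called at the last step, with -1.38 in forelimb and -1.68 in hindlimb, and the step before had -0.68 and -0.62, short of both limits of a call (limma adjusted p = 0.00372 and 0.00348). The forelimb mean was 11.89 ± 0.25 at E13.5 and 13.27 ± 0.19 at E12.5 (SD, n = 5 each). The higher Hba-x of limb over whole embryo, 1.03 ± 0.21 in forelimb at E10.5 and 1.59 ± 0.21 at E11.5, was below the 2-fold limit after quantile normalization, with 0.58 and 0.86. The E10.5 value in forelimb was 0.78 without whole embryo replicate 1 and 0.98 without forelimb replicate 2 of that stage, neither of them called.

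Hbb-y did not move by more than a fraction of these amounts. Its range over arrays was 14.15 to 14.24 in E13.5 forelimbs and 14.06 to 14.40 in E10.5 forelimbs, and E13.5 whole embryos had 14.36 and 14.31, against 13.73 and 14.14 at E10.5. The fold change between these stages was -0.06 ± 0.07 in forelimb, -0.12 ± 0.08 in hindlimb and 0.40 ± 0.12 in whole embryo (SE), and none was called. In forelimb its sign differed between probe sets, with 0.02 and 0.03 by 2 of them and -0.21 by the third. The levels lie close to the highest value on any array, 14.79, and whether the probes still respond there was not tested.

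**Figure D3:**
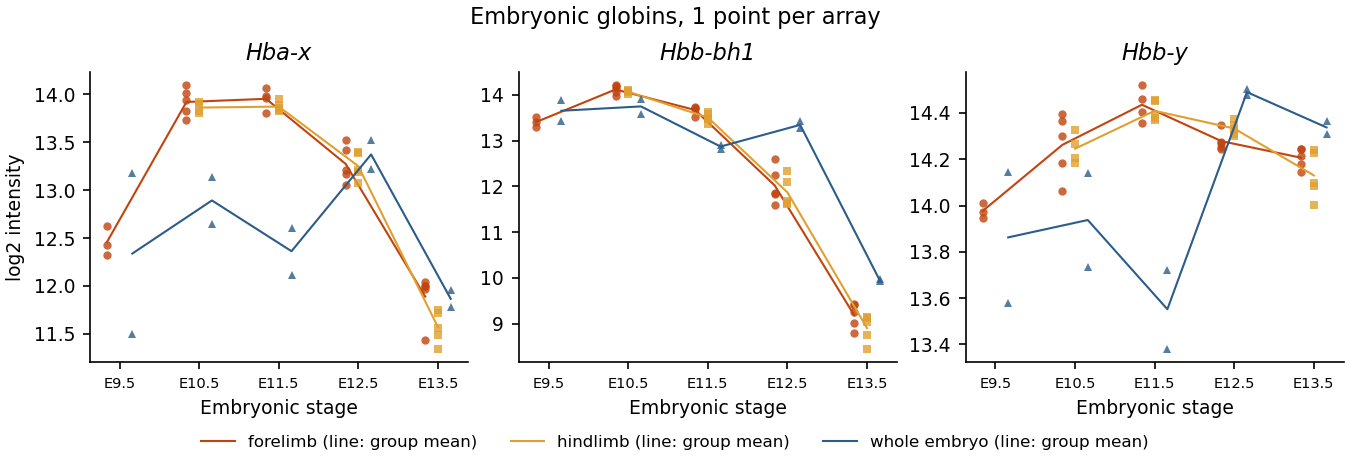
Log2 intensity of the 3 embryonic globins (vertical axes) by embryonic stage (horizontal axes), with 1 point per array and lines through the group means of forelimb, hindlimb and whole embryo. Hbb-bh1 drops to between 8.45 and 9.44 in E13.5 limbs and to 9.93 and 9.97 in E13.5 whole embryos, while Hbb-y stays between 13.38 and 14.52 on every array.

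A probe set of the adult beta globins rose in all 3 tissues over the same stages. Hbb-b1, Hbb-b2, Hbb-bs and Hbb-bt, share it, and its mean was 13.82 in forelimb, 13.70 in hindlimb and 14.40 in whole embryo at E13.5, and 11.83, 11.61 and 11.17 in the same order at E10.5. The fold change was 1.98 ± 0.18 in forelimb (SE, adjusted p = 1.03e-12 in a limma fit of all 45101 probe sets), 2.09 ± 0.19 (adjusted p = 1.25e-12) in hindlimb and 3.23 ± 0.29 (adjusted p = 1.47e-12) in whole embryo. A probe set of Hbb-b2 alone was at 6.84 in E13.5 forelimb and 10.09 in E13.5 whole embryo, with a fold change between them of -3.25 ± 0.22 (limma adjusted p = 6.69e-17), while the other probe set of Hbb-b2 gave 0.41 ± 0.15 and was not called. Hba-a1 and Hba-a2, the adult alpha globins, share 3 probe sets whose forelimb means were 14.07 to 14.32 at E13.5 and 13.94 to 14.01 at E10.5, near the top of the scale. In whole embryo they were 13.59, 14.78 and 14.48 at E13.5 and 10.95, 13.70 and 13.02 at E10.5, with fold changes of 2.65, 1.08 and 1.46, all called higher. The 3 shared sets were 9.65 to 12.94 in E9.5 forelimb, a step across the array sets, and the shared beta set was 11.77 there. Which wave of red cells held these transcripts was not tested. Paralogs with near-identical transcripts cannot be told apart on these probe sets.

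All 6 regulators fell in limb and rose in whole embryo between E10.5 and E13.5. Gata1, Klf1 and Tal1 encode transcription factors that drive the erythroid programme, and Nfe2 a subunit of a factor that acts at globin genes. Gfi1b encodes a transcriptional repressor made in the erythroid and megakaryocyte lineages, and Hemgn, or hemogen, a nuclear protein of blood cells. Hemgn had 3.88, 3.85, 3.37, 3.93 and 3.56 in E13.5 forelimbs, against 9.64, 9.88, 8.87, 9.02 and 9.94 in E10.5 forelimbs. Whole embryos had 12.18 and 12.41 at E13.5 and 9.41 and 9.65 at E10.5. The 2 tissues overlapped at E10.5, and at E13.5 every limb array lay far below both whole embryos. The fold change was -5.75 ± 0.25 in forelimb (SE, limma adjusted p = 2.05e-23) and 2.77 ± 0.40 in whole embryo (adjusted p = 1.71e-07), and E13.5 forelimb differed from E13.5 whole embryo by -8.58 ± 0.33, the lowest of the 31 genes.

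Klf1 had 5.43, 5.38, 5.22, 5.55 and 4.99 in E13.5 forelimbs, against 9.02, 8.96, 8.42, 8.57 and 9.02 in E10.5 forelimbs. Its whole-embryo values were 11.05 and 11.05 at E13.5 and 8.32 and 8.76 at E10.5. Limb and whole embryo thus overlapped at E10.5 and lay far apart at E13.5, with fold changes between E10.5 and E13.5 of -3.48 ± 0.20 in forelimb and 2.51 ± 0.31 in whole embryo (SE). Gata1 differed earlier: E10.5 forelimbs had 7.26, 6.72, 6.46, 6.72 and 6.60, against 7.81 and 8.46 in E10.5 whole embryos, with no overlap and a fold change of -1.38 ± 0.18 (limma adjusted p = 1.93e-08). At E9.5, where both tissues lie in 1 array set, forelimbs had 7.08, 7.17 and 6.90 and whole embryos 7.46 and 6.56, which overlapped. The Gapdh 3′ over 5′ difference at E9.5 was 1.48 to 1.73 in forelimb and 2.03 to 2.85 in whole embryo, without overlap, and its part was not tested. The forelimb mean of Gata1 was 5.30 ± 0.18 at E13.5 and 5.16 ± 0.21 at E12.5 (SD, n = 5 each), with overlapping arrays, and the last step was not called. Tal1, Nfe2 and Gfi1b fell by 1.91, 2.17 and 1.23 in forelimb between E10.5 and E13.5 and rose by 2.01, 2.93 and 1.53 in whole embryo, all called.

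**Figure D4:**
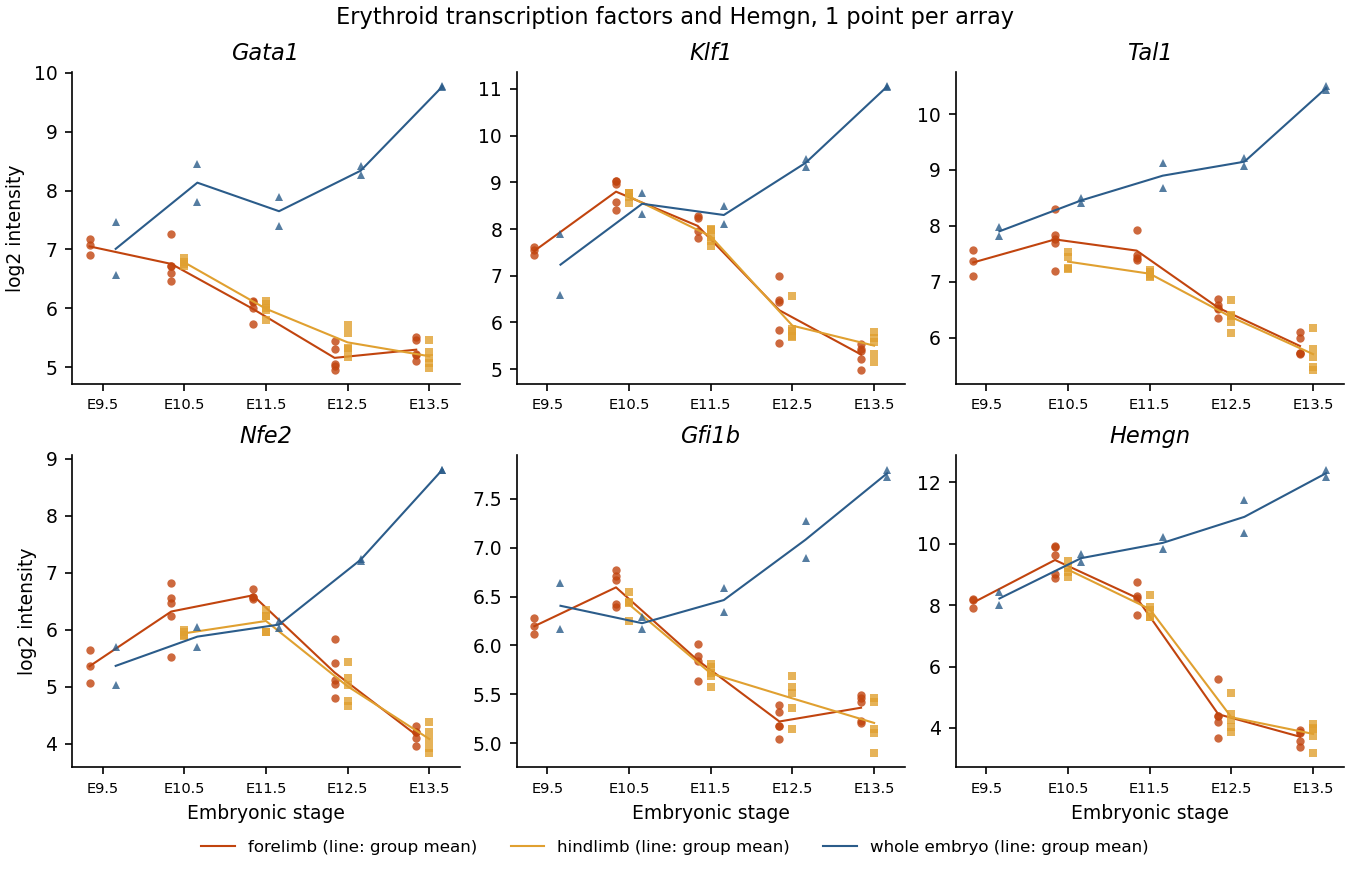
Log2 intensity of the 6 erythroid regulators (vertical axes, each with its own range) by embryonic stage (horizontal axes), with 1 point per array and lines through the group means. Limb and whole embryo overlap or lie close at E9.5 and part to opposite sides by E12.5, with Hemgn between 3.19 and 4.15 in E13.5 limbs and at 12.18 and 12.41 in E13.5 whole embryos.

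Sequence upstream of the start site was read for members that moved together and for 2 globins that parted. RefSeq entries on GRCm38.p6, a C57BL/6J reference and not the FVB strain of the samples, were matched for 24 of the 33 genes by symbol. The 250 bases before the start are printed below for the globins Hba-x and Hbb-y and for Hemgn, Klf1, Rhag and Alas2, whose limb and whole-embryo levels moved apart. Capitals mark matches, on either strand, to the GATA motif, searched as AGATAA with G also allowed as the last letter and T as the first, or to the CACCC-type motif of KLF factors (CCACACCC, CCACGCCC, CCCCACCC or CCCCGCCC). The windows are Hba-x at chr11:32276350-32276599 (plus strand), Hbb-y at chr7:103853208-103853457 (minus strand), Hemgn at chr4:46404184-46404433 (minus strand), Klf1 at chr8:84901732-84901981 (plus strand), Rhag at chr17:40810899-40811148 (plus strand) and Alas2 at chrX:150547167-150547416 (plus strand).
Hba-x: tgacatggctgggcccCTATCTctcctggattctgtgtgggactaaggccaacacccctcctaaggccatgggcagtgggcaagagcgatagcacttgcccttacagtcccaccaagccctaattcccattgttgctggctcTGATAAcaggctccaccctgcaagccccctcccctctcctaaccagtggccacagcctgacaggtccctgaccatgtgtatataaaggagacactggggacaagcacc
Hbb-y: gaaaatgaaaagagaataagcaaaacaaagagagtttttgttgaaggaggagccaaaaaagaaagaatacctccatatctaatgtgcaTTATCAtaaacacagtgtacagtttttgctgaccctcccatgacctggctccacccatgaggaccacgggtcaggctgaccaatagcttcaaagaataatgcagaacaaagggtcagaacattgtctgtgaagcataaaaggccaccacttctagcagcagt
Hemgn: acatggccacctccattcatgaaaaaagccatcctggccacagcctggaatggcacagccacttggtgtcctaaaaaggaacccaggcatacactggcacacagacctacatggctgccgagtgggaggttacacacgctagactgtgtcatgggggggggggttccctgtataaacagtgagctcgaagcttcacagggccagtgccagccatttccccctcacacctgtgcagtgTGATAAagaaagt
Klf1: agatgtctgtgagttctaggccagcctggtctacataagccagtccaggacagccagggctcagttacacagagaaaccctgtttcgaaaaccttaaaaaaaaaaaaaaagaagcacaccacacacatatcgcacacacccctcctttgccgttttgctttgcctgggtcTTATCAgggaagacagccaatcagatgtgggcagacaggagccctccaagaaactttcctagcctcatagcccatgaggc
Rhag: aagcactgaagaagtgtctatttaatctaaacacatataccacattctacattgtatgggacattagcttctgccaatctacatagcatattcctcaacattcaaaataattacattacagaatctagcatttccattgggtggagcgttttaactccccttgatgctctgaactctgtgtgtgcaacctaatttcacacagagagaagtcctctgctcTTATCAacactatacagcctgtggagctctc
Alas2: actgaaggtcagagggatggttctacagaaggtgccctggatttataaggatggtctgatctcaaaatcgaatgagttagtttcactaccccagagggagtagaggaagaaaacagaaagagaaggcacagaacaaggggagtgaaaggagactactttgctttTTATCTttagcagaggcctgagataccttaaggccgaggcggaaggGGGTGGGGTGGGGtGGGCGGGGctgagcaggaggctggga
The GATA match began 13 bases before the start in Hemgn, 31 in Rhag, 80 in Klf1, 86 in Alas2 and 162 in Hbb-y, and Hba-x had 2, which began 234 and 108 bases before it. Alas2 had 3 overlapping or adjoining CACCC-type matches on the opposite strand. Of 29 windows of the matched genes, 18 (62.1%) held a GATA match and 10 (34.5%) a CACCC-type match, against 26.5% and 27.4% of all 32851 promoter windows of this length. A match describes letters in these windows, some genes have several windows, and binding was not measured.

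Haem synthesis genes rose together in whole embryo and, by gene average, fell less evenly in limb. Of the 7 measured genes of haem synthesis and iron, 6 rose in whole embryo between E10.5 and E13.5 (background 9.88%), 4 fell in forelimb (background 5.13%) and 2 in hindlimb (background 5.16%). Alas2, the erythroid enzyme of the first step of haem synthesis, had 7.58, 7.71, 7.13, 7.50 and 7.91 in E13.5 forelimbs, against 9.52, 9.54, 8.72, 8.93 and 9.56 in E10.5 forelimbs, and whole embryos had 11.84 and 11.69 at E13.5 and 8.82 and 9.37 at E10.5. No array of one stage reached the other stage in either tissue, and the fold changes were -1.69 ± 0.20 in forelimb (SE, limma adjusted p = 9.45e-10) and 2.67 ± 0.32 in whole embryo (adjusted p = 2.71e-09). Urod, a later enzyme of the pathway, fell by 1.16 in forelimb and rose by 1.40 in whole embryo. Slc25a37, the mitochondrial iron importer mitoferrin 1, fell by 1.21 in forelimb and rose by 2.54 in whole embryo. Cpox, Fech and Blvrb, 2 haem synthesis enzymes and biliverdin reductase B, rose in whole embryo by 2.04, 1.77 and 2.98 but were not called in forelimb, with fold changes of -0.89, -0.38 and -0.49. The averages of Cpox and Fech include a dim probe set. By probe set Cpox had -1.21 and -1.28 in forelimb, and -0.17 by the dim set, whose mean level was 3.57. Fech had -0.66, -0.42 and -0.73, and 0.29 by the dim set, whose mean level was 4.34.

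Tfrc, the transferrin receptor that takes up iron, had the opposite relation of tissues to most genes, but its value depended on the probe set. Averaged over 6 probe sets it ranged from 7.72 to 8.59 in E10.5 forelimbs, against 5.69 and 5.64 in E10.5 whole embryos, with a fold change of 2.55 ± 0.20 (SE, limma adjusted p = 6.49e-15). By the brightest probe set that fold change was 0.28 (limma adjusted p = 0.00483) and not called. At E12.5 the brightest probe set gave -1.11 for forelimb over whole embryo, where the other 5 gave 1.75 to 2.98. Those 5 include control sets for the 5′ end, the middle and the 3′ end of the transcript. In E9.5 forelimb, on the array set of the whole embryos, Tfrc had 5.83, 5.83 and 5.94, against 5.65 and 5.87 in E9.5 whole embryos. For E10.5 over E9.5 forelimb, across the array sets, the 5 dimmer sets gave 2.54 to 3.58 and the brightest -0.51. For E13.5 over E10.5 forelimb each probe set was negative, between -0.96 and -2.77, and the average was -1.92 ± 0.15 in forelimb and -2.48 ± 0.16 in hindlimb, both called.

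Of the 10 measured genes of the membrane and its skeleton, 6 fell in forelimb (background 5.13%) and 7 in hindlimb (background 5.16%) between E10.5 and E13.5, and 7 rose in whole embryo (background 9.88%). Rhag, the Rh-associated glycoprotein, had 3.07, 3.41, 3.33, 2.98 and 2.81 in E13.5 forelimbs, against 7.46, 7.41, 6.59, 7.18 and 7.34 in E10.5 forelimbs. Whole embryos had 10.03 and 10.30 at E13.5 and 6.02 and 6.60 at E10.5. 4 of the 5 E10.5 forelimbs lay above both E10.5 whole embryos and all E13.5 forelimbs far below both E13.5 ones, and the fold changes between the stages were -4.08 ± 0.22 in forelimb and 3.85 ± 0.35 in whole embryo (SE), both called. Slc4a1, the anion exchanger band 3, fell by 2.78 in forelimb and rose by 2.02 in whole embryo, and its anchor Epb42 fell by 2.03 and rose by 1.83. At E12.5 the difference of Epb42 between forelimb and whole embryo, -1.31, rested on the probe set, since the brightest gave 0.01. The blood group proteins Rhd, Kel and Ermap fell by 2.21, 2.28 and 2.33 in forelimb and rose by 3.73, 2.38 and 3.03 in whole embryo.

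The gene averages of the skeleton genes moved little between E10.5 and E13.5, but single probe sets moved more. Ank1, Sptb and Add2, which encode ankyrin 1, beta spectrin and beta adducin, had fold changes between E10.5 and E13.5 of 0.51, -0.26 and -0.78 in forelimb and 0.71, 0.90 and 0.81 in whole embryo, none of them called. All 3 have probe sets that differ in sign in forelimb, and these genes are expressed outside red cells too. By probe set Add2 ranged from -1.71 to 0.07 in forelimb and from -0.43 to 2.17 in whole embryo. Sptb had -1.255 and 0.727 in forelimb and 1.417 and 0.386 in whole embryo. Ank1 ranged from -0.13 to 1.20 in forelimb and from -0.01 to 1.42 in whole embryo. Tspan33, a tetraspanin of erythroblasts, fell by 1.14 in hindlimb and rose by 1.99 in whole embryo, with -0.91 in forelimb, short of the 2-fold limit.

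Among the receptor and enzymes, Car2, carbonic anhydrase 2, had 8.09, 8.03, 7.62, 7.91 and 8.04 in E13.5 forelimbs, against 10.71, 10.90, 10.07, 10.36 and 10.88 in E10.5 forelimbs, and whole embryos had 13.13 and 13.06 at E13.5 and 10.78 and 10.93 at E10.5. All E13.5 forelimbs lay below all E10.5 forelimbs and both E13.5 whole embryos above both E10.5 ones, with fold changes of -2.65 ± 0.14 and 2.24 ± 0.22 (SE, both called). Trim10, a RING finger protein of maturing erythroblasts, fell by 2.58 in forelimb and rose by 2.29 in whole embryo. Epor, the erythropoietin receptor, fell by 1.09 in forelimb and rose by 2.21 in whole embryo. Bpgm, which makes the phosphoglycerate that lowers the oxygen affinity of haemoglobin, fell by 1.35 in forelimb and had 0.94 in whole embryo, short of the limit. Car1, carbonic anhydrase 1, ranged from 3.30 to 4.09 over E10.5 and E13.5 forelimbs, near the bottom of the scale, and had 5.42 and 5.20 in E13.5 whole embryos, against 4.42 and 3.87 at E10.5.

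Counted over the whole interval, 22 of 31 genes were called lower in E13.5 than in E10.5 forelimb (background 5.13%) and 20 in hindlimb (background 5.16%), with medians of -1.69 and -1.65 against -0.03 and -0.08 over all genes. In 26 genes every E13.5 forelimb lay below every E10.5 forelimb, and in 28 every E13.5 hindlimb below every E10.5 hindlimb. The share of all genes that separate in this way is not given here, so these 2 counts have no background. In whole embryo 23 genes were called higher at E13.5 than at E10.5 (background 9.88%) and 2, Hba-x and Hbb-bh1, lower (background 1.30%), with a median of 2.01 against 0.05 over all genes. In the 29 other genes both E13.5 whole embryos lay above both E10.5 ones. With 2 arrays a stage such an order arises easily, and its share over all genes is not given here either.

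**Figure D5:**
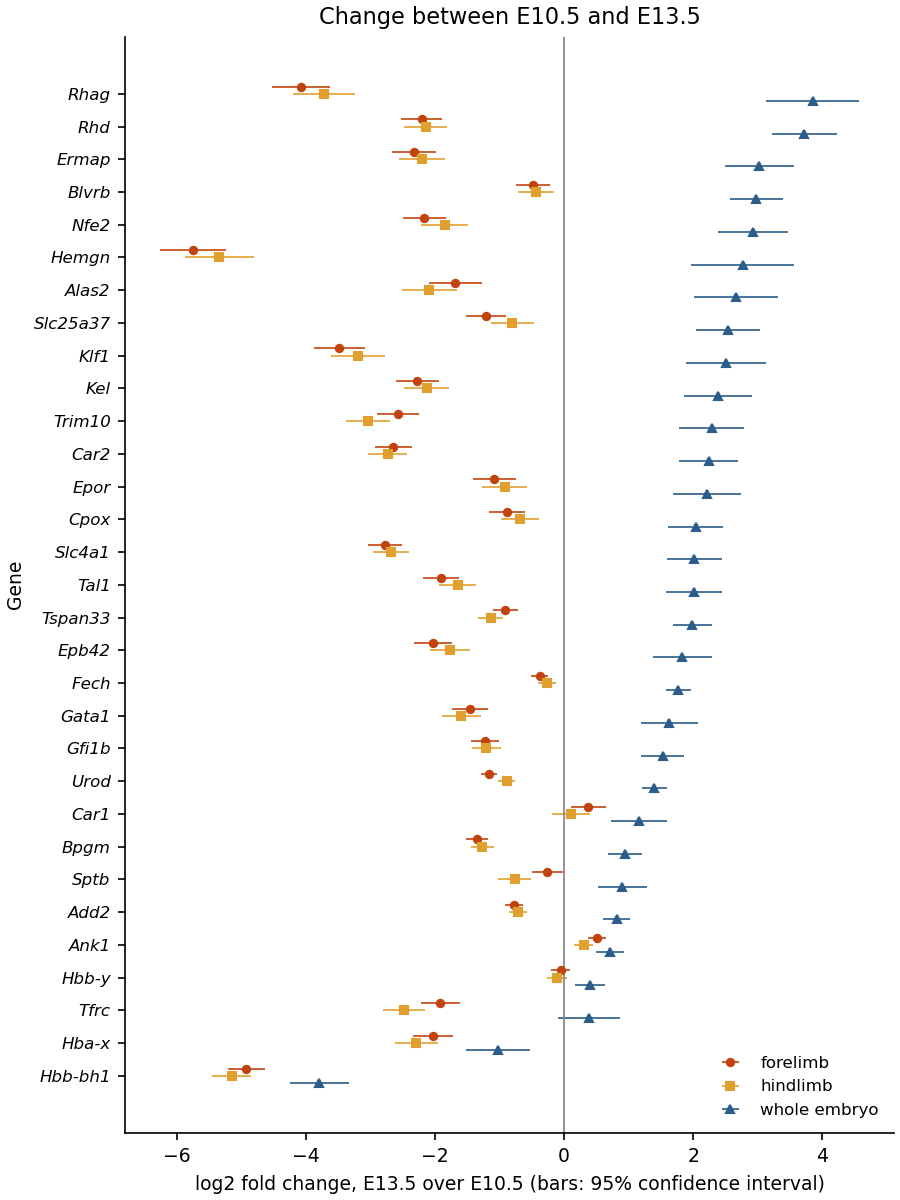
Log2 fold change of E13.5 over E10.5 (horizontal axis, with 95% confidence intervals) for each of the 31 genes (rows, ordered by the whole-embryo value) in forelimb, hindlimb and whole embryo. Most genes lie left of 0 in both limbs and right of it in whole embryo, with Hba-x and Hbb-bh1 left of 0 in all 3 tissues.

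The change itself differed between limb and whole embryo. Forelimb minus whole embryo, the change between E10.5 and E13.5 was called lower for 27 of 31 genes (background 9.87%), with a median of -3.30, and hindlimb minus whole embryo it was called lower for 29 (background 9.49%), with a median of -3.23. The lowest were Hemgn with -8.52 ± 0.47 (SE, limma adjusted p = 5.47e-19) and Rhag with -7.93 ± 0.42 (adjusted p = 1.14e-19) in forelimb. A fixed offset between the array sets on the log2 scale drops out of this difference. A shift within whole embryo, such as that of the Gapdh difference between E10.5 and E13.5, does not. Not called in forelimb were Hba-x (-1.01, limma adjusted p = 0.00411), Hbb-y (-0.46), Ank1 (-0.20) and Car1 (-0.79). Hbb-bh1 was called with -1.13 ± 0.26 in forelimb, but it was not called with any 1 of 4 arrays left out. It was -0.98 (limma adjusted p = 0.0111) without whole embryo replicate 1 of E10.5, -1.11 (0.00395) and -1.16 (0.00284) without E13.5 whole embryo replicate 1 or 2, and -1.04 (0.0011) without E13.5 forelimb replicate 2. In hindlimb the calls of Hba-x and Hbb-bh1 were also lost with single arrays left out, with -1.02 and -1.20 without whole embryo replicate 1 of E10.5, and Hba-x was -0.78 after quantile normalization. That normalization also ended the calls of Hbb-bh1, at -0.76 in forelimb and -0.99 in hindlimb. Sptb in forelimb was -0.90 and not called without whole embryo replicate 1 of E10.5. The hindlimb call of Car1, -1.06, was lost in most alternatives, with -0.88 after quantile normalization and -0.78 (limma adjusted p = 0.0269) without whole embryo replicate 2 of E10.5.

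Both of the last 2 steps in limb had negative medians, and more genes were called between E11.5 and E12.5. The median over the 31 genes was -0.83 at this step and -0.73 at the next in forelimb, and -0.72 and -0.54 in hindlimb. Between E11.5 and E12.5, 15 of 31 genes were called lower in forelimb, and only 30 of 18194 genes were (background 0.165%), so the erythroid genes were 15 of the 30 genes called lower and 48.4% of their own list. With arrays blocked by replicate number and only the compared groups fitted, the count in forelimb was 5. Embryos of E11.5 and E12.5 cannot be pairs, so that block matches no shared embryo. In hindlimb 14 were called lower of 44 genes in all (background 0.242%), which is 31.8% of the called genes and 45.2% of the list. The 14 were Hbb-bh1, Klf1, Nfe2, Hemgn, Alas2, Slc25a37, Slc4a1, Epb42, Rhag, Rhd, Kel, Ermap, Car2 and Trim10, and forelimb added Tal1. Hemgn had 5.59, 4.18, 4.39, 4.40 and 3.68 in E12.5 forelimbs, against 8.75, 7.69, 8.23 and 8.31 in E11.5 forelimbs, which did not overlap, and fell by 3.79. Rhag fell by 2.61 and Klf1 by 1.80. Among the steps between E10.5 and E13.5, this one had the lowest change in 22 of 31 genes in forelimb and in 16 in hindlimb. The 22 include Ank1 and Car1, which did not fall in forelimb at this step (0.075 and 0.002). The same count over all genes is not given here.

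Between E10.5 and E11.5 only Hemgn was called lower, in forelimb (background 0.363%) and in hindlimb (background 0.368%), and the call was lost without any 1 of forelimb replicates 1, 2 or 5 of E10.5 or 2, 3 or 4 of E11.5, or hindlimb replicate 4 of E10.5, with a count of 0 each time. Without forelimb replicate 1 of E11.5 the count was 2. Between E12.5 and E13.5, 9 genes were called lower in forelimb (background 1.29%) and 8 in hindlimb (background 0.396%). Hbb-bh1 had -2.84 in forelimb at this step, against -1.65 at the one before. Hba-x, Hbb-bh1, Slc4a1, Rhag, Kel, Car2 and Trim10 were called in both limbs. Between E9.5 and E10.5 forelimb, across the array sets, 7 genes were called higher (background 5.74%): Hba-x, Klf1, Hemgn, Tfrc, Blvrb, Rhag and Kel. The median of the 31 genes was 0.56 there, and it was 0.55 between E9.5 and E10.5 whole embryo, which lie in 1 array set.

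In whole embryo most of the calls came at the last 2 steps, although the step to E10.5 was positive too. From E9.5 to E10.5, 2 genes were called higher (Gata1 and Rhd, background 0.440%), with a median over the 31 genes of 0.55. Of the 31, 28 were positive, and the share of positive signs over all genes is not given here. From E10.5 to E11.5 none was called higher (background 0.544%), with a median of -0.13. The medians of the last 2 steps were 0.86 and 1.20. From E11.5 to E12.5, 9 genes were called higher (background 1.89%), Rhag with the largest rise of 2.32 ± 0.35 (SE), and from E12.5 to E13.5, 17 were (background 2.92%), while Hba-x and Hbb-bh1, 2 genes, were called lower (background 0.198%). Over the full range, E13.5 exceeded E9.5 in 24 genes (background 11.3%), and these included Add2 and Bpgm beside 22 of those called from E10.5. With 2 arrays a stage these counts moved with single arrays. The E9.5 to E10.5 count was 8 without E9.5 replicate 1, 1 without E9.5 replicate 2 and 0 without E10.5 replicate 2. The E11.5 to E12.5 count was 2 without E11.5 replicate 1 and 4 without E12.5 replicate 2, and the last was 10 without E12.5 replicate 1, 11 without E13.5 replicate 1 and 7 without E13.5 replicate 2.

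Arrays of 1 group did not vary gene by gene alone. Of the 31 genes, 26 were lowest on replicate 3 of the 5 E10.5 forelimbs, whose mean over genes was 7.88, against 8.06 to 8.40 on the other 4. Of the 2 E9.5 whole embryos, replicate 2 was the lower in 26 genes, and it also had the highest Gapdh 3′ over 5′ difference of all arrays, 2.85 against 2.03 in replicate 1. In E12.5 forelimb replicate 1 was highest in 18 genes, and in E12.5 hindlimb replicate 1 was highest in 17. Whether RNA quality or the exact age of an embryo has a part in these differences was not tested.

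Between forelimb and hindlimb of a stage no gene passed both limits. None of the 31 was called in either direction at any of the 4 stages they share, against backgrounds of 0.566%, 0.412%, 0.506% and 0.286%. The largest difference at E10.5 was that of Tfrc, -0.52, with a 95% confidence interval of -0.84 to -0.20, and at E13.5 that of Trim10, 0.47 with an interval of 0.15 to 0.80. The signs were mostly positive, with 25, 27, 20 and 23 of 31 genes higher in forelimb at the 4 stages. The share of positive signs over all genes is not given here. The 31 genes were read on the same arrays, so their signs are not independent.

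Other genes of the red cell lineage, from a list beside the 31, followed in part. Of 24 measured, 18 were called lower in E13.5 forelimb than in E13.5 whole embryo (background 8.12%), 16 higher in E13.5 than in E10.5 whole embryo (background 9.88%), and 5 lower (background 5.13%) and 1 higher (background 5.43%) in E13.5 than in E10.5 forelimb, the last being a share near the background. Icam4, an adhesion protein of erythroblasts, stood at -5.97 on the log2 scale for E13.5 forelimb over whole embryo, Slc38a5, an amino acid transporter, at -5.65, and Cldn13, a claudin of mouse erythroblasts, at -5.36. Within forelimb, Icam4, Slc38a5 and Cldn13 fell by 2.71, 2.29 and 1.69. Aqp1, the water channel of red cells and of endothelium, rose in both tissues, by 3.66 in forelimb and 4.09 in whole embryo. Of 15 other genes of haem synthesis and iron, 6 were lower in E13.5 forelimb than in whole embryo (background 8.12%), with Tmem14c at -2.28 and Uros at -1.37. In forelimb between E10.5 and E13.5, 1 fell, Slc11a2 by 1.08, and 1 rose, the iron exporter Slc40a1 by 1.34, each 1 of 15 and near the backgrounds given above.

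Of 9 factors linked to globin switching, Myb was called lower in E13.5 than in E10.5 forelimb with -1.44 (background 5.13%). Sox6 was called higher with 1.17 (background 5.43%). So few calls among 9 genes lie near these backgrounds. In whole embryo Sox6, Bcl11a and Mbd2 were called higher (background 9.88%), Sox6 with 1.27 and Bcl11a with 1.31. E13.5 forelimb was below whole embryo in Ikzf1 and Myb, with -1.51 and -1.20 (background 8.12%). Of 9 blood progenitor genes none was called between E13.5 forelimb and whole embryo (background 8.12% for lower). Of 9 genes of megakaryocytes and platelets, 6 were lower in E13.5 forelimb than in whole embryo, against the same background of 8.12%. They were led by Ppbp with -5.29 and Pf4 with -2.81. Ppbp alone was called between E10.5 and E13.5 forelimb, with -1.82 (background 5.13%).

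Markers of other cells moved beside these genes in whole embryo. All 12 liver markers were higher in E13.5 than in E10.5 whole embryo, where 9.88% of all genes were called higher. Their median was 5.26, and their summed intensity was 36708 to 41135 in E13.5 and 657 to 969 in E10.5 whole embryos. In limb none was called between E10.5 and E13.5 (background in forelimb 5.13% for lower and 5.43% for higher), and the sum was 179 to 204 in E13.5 and 193 to 205 in E10.5 forelimbs. Macrophage markers rose in both tissues, 10 of 12 in forelimb (background 5.43%) and 11 of 12 in whole embryo (background 9.88%), with sums of 1995 to 2455 in E13.5 and 538 to 737 in E10.5 forelimbs. None of 12 endothelial markers was called between E10.5 and E13.5 forelimb (same backgrounds of 5.13% and 5.43%), with sums of 3420 to 4093 in E13.5 and 3363 to 4013 in E10.5 forelimbs. The part of liver growth in the whole-embryo rise and of macrophages in either result was not tested.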

How the data were processed

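RNA of the forelimb or hindlimb buds of 1 FVB embryo, or of 1 whole embryo, was used for each array, labelled and hybridized to Affymetrix whole-genome mouse arrays. The deposited values are intensities that the authors summarized by RMA (version not given in the sources used here), after correcting a small blemish on 1 E12.5 whole-embryo array, and their log2 was taken here. Probe sets were named from GEO's platform annotation: of 45101, 34958 carried 1 symbol and 932 several, which were not used except for the adult globins. Single-symbol probe sets were averaged to 18194 genes. 1 linear model over 14 groups (37 residual degrees of freedom) was fitted with limma 3.58.1 in R 4.3.3, with Benjamini-Hochberg adjustment over all genes, and the script was tested on simulated data. A call was a fold change of 2 or greater at an adjusted p under 0.001. Groups followed the titles, also for the 2 arrays whose other labels disagree. The members and lists were chosen with earlier results of these data known. Any member may be named, from the other lists at most 4 called genes per comparison, by size of change, and every adult globin. Other cell types are given as whole lists. No column of values was left unused.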

Additional observations from a re-analysis of the deposited data

Results flagged for a closer look

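In 12 of 256 groups of 4 or 5 limb arrays, 1 array lay farther from its nearest neighbour than Dixon's 95% limit allows, and chance puts about 1 in 20 groups past it. These were Hba-x in E13.5 forelimb replicate 2, 11.44 against 11.97 to 12.04 in the other arrays, then Klf1 in E12.5 hindlimb replicate 1, 6.57 against 5.69 to 5.86 in the other arrays, then Tal1 in E11.5 forelimb replicate 3, 7.93 against 7.39 to 7.47 in the other arrays. Others were Cpox in E13.5 forelimb replicate 5, 5.07 against 5.34 to 5.42 in the other arrays, then Fech in E13.5 forelimb replicate 4, 7.68 against 7.56 to 7.59 in the other arrays, then Tfrc in E12.5 hindlimb replicate 1, 7.52 against 7.16 to 7.25 in the other arrays. Others were Tfrc in E13.5 hindlimb replicate 4, 5.71 against 6.31 to 6.42 in the other arrays, then Rhd in E11.5 hindlimb replicate 1, 7.53 against 7.16 to 7.23 in the other arrays, then Kel in E12.5 hindlimb replicate 1, 6.65 against 5.99 to 6.07 in the other arrays. Others were Ermap in E10.5 hindlimb replicate 3, 7.52 against 7.43 to 7.43 in the other arrays, then Bpgm in E13.5 hindlimb replicate 5, 8.44 against 8.27 to 8.30 in the other arrays, then the mean of the 31 genes in E11.5 forelimb replicate 2, 7.97 against 8.10 to 8.11 in the other arrays. 3 of the 12 lie on replicate 1 of E12.5 hindlimb.

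The change between E10.5 and E13.5 differed between limb and whole embryo by the limma test of the difference itself in 27 genes for forelimb and 29 for hindlimb, each lower in limb and called. For forelimb minus whole embryo, on the log2 scale, the embryonic globins called had Hbb-bh1 -1.13. The regulators had Gata1 -3.09, Klf1 -5.99, Tal1 -3.92, Nfe2 -5.10, Gfi1b -2.76 and Hemgn -8.52. The haem synthesis and iron genes had Alas2 -4.35, Cpox -2.92, Urod -2.56, Fech -2.15, Tfrc -2.31, Slc25a37 -3.75 and Blvrb -3.47. The membrane and skeleton genes had Slc4a1 -4.79, Epb42 -3.86, Sptb -1.17, Add2 -1.59, Rhag -7.93, Rhd -5.94, Kel -4.66, Ermap -5.36 and Tspan33 -2.90. The receptor and enzyme genes had Epor -3.30, Car2 -4.89, Bpgm -2.29 and Trim10 -4.86. For hindlimb minus whole embryo, on the log2 scale, the embryonic globins called had Hba-x -1.26 and Hbb-bh1 -1.36. The regulators had Gata1 -3.23, Klf1 -5.70, Tal1 -3.66, Nfe2 -4.79, Gfi1b -2.74 and Hemgn -8.12. The haem synthesis and iron genes had Alas2 -4.75, Cpox -2.73, Urod -2.29, Fech -2.04, Tfrc -2.87, Slc25a37 -3.35 and Blvrb -3.42. The membrane and skeleton genes had Slc4a1 -4.70, Epb42 -3.61, Sptb -1.67, Add2 -1.53, Rhag -7.57, Rhd -5.88, Kel -4.52, Ermap -5.24 and Tspan33 -3.13. The receptor and enzyme genes had Epor -3.13, Car1 -1.06, Car2 -4.98, Bpgm -2.21 and Trim10 -5.32. Car1 in hindlimb was not called in most alternatives, and was -0.88 after quantile normalization and -0.78 without whole embryo replicate 2 of E10.5.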

How the results depend on the processing

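Alternatives were gene values from the probe set of highest mean, quantile normalization, a mean of at least 6, an intensity trend with a robust prior, an adjusted p under 0.05 with no fold limit, a fit on the compared groups alone, a replicate block, the 2 arrays with conflicting labels left out or placed by their other labels, and each array left out. Counts of the 31 genes called below are those that moved by over 1.5 times, with the count as reported in brackets. Shares over all genes under the alternatives are not given here, so these counts have no background. More of all genes can pass a looser limit too.

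At an adjusted p under 0.05 with no fold limit, limb was lower than whole embryo in 2 genes in E9.5 forelimb [0], 6 in E10.5 forelimb [2], 6 in E10.5 hindlimb [3], and 10 in E11.5 forelimb and hindlimb [5]. Forelimb differed from hindlimb in 1, 2, 2 and 2 genes from E10.5 to E13.5 [0]. Forelimb steps gave 23 genes higher to E10.5 [7] and 7 lower to E11.5 [1], 24 to E12.5 [15] and 19 to E13.5 [9]. Hindlimb steps gave 9 lower to E11.5 [1], 23 to E12.5 [14] and 20 to E13.5 [8]. Whole-embryo steps gave 15 higher to E10.5 [2], 1 to E11.5 [0] and 27 to E12.5 [9].

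Fitted on the compared groups alone, with 2 arrays a stage, whole embryo gave 0 genes for E13.5 over E9.5 [24] and 0 for the steps to E10.5 [2], E12.5 [9] and E13.5 [17], and the forelimb step to E11.5 gave 0 [1]. Quantile normalization gave 4 genes lower in E10.5 forelimb than whole embryo [2], 5 in hindlimb [3], and 4 higher at the whole-embryo step to E12.5 [9]. With conflicting arrays placed by their other labels, 15 genes fell at the forelimb step to E13.5 [9] and 0 at the hindlimb step to E11.5 [1].

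By the probe set of highest mean, 2 genes fell at the forelimb step to E11.5 [1], and signs turned for Tfrc over whole embryo in E11.5 forelimb (-0.15), E12.5 forelimb (-1.11) and E12.5 hindlimb (-0.99), and for Epb42 in E12.5 forelimb (0.0096). The Hbb-y change in forelimb was 0.015 and 0.0314 by 2 of its 3 probe sets, against -0.0556 on average.

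The replicate numbers are not stated to mark a shared embryo, and the correlation of same-numbered forelimb and hindlimb deviations was -0.03 to 0.04 at E10.5, -0.11 to 0.13 at E11.5, 0.07 to 0.35 at E12.5 and 0.03 to 0.25 at E13.5, so they were not taken as pairs. At E12.5 all 5 pairs were positive, and over the 31 genes replicates 1 and 5 had 0.88 and 0.65. With the replicate block, on the compared groups alone, limb was lower than whole embryo in 0 genes in E10.5 forelimb [2], 2 in E11.5 forelimb [5] and 0 in E11.5 hindlimb [5]. The block gave 0 for whole embryo E13.5 over E9.5 [24], 0 and 2 for its steps to E10.5 [2] and E12.5 [9], 0 and 5 for the forelimb steps to E11.5 [1] and E12.5 [15], and 0 for the hindlimb step to E11.5 [1]. Arrays of different stages cannot share an embryo, nor can a limb and an intact whole embryo, so in these comparisons the block matches no pairs.

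Leaving out 1 array gave ranges of 0 to 8 for the whole-embryo step to E10.5 [2], 2 to 6 to E12.5 [9] and 7 to 12 to E13.5 [17], 1 to 2 for E10.5 forelimb under whole embryo [2], 2 to 5 for E11.5 forelimb [5], 0 to 2 for the forelimb step to E11.5 [1] and 0 to 1 for the hindlimb one [1]. The counts between E10.5 and E13.5 stayed at 21 to 22 in forelimb, 20 to 21 in hindlimb and 22 to 24 in whole embryo. The cause of these shifts was not tested. Few arrays a group limit the precision, whole embryo having 2 a stage, and signals near the top of the scale, Hbb-y above all, may limit what could be measured.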
